A study of Mus musculus with 6 samples.

Results

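Genes of sterol and fatty acid synthesis were examined in the cochlear lateral wall, which is made up of the spiral ligament and, facing the cochlear duct, the stria vascularis. They were 8 genes of 18193 measured, taken as a named set of the SREBP transcription factors, their regulator and their target enzymes: Srebf1, Srebf2, Insig1, Hmgcs1, Idi1, Sqle, Scd1 and Fasn. All 15 probe sets whose only annotated symbol was one of these were used, of 45037 tested. Tissue came from old CBA/CaJ mice of 1.5 years (3 arrays) and from young adults of the same strain, aged 1 to 3 months (3 arrays). Animals of both sexes were used, the strain was inbred and bred in a low-noise colony, and the labels name no treatment or genetic change in either group. They do not say whether a sample came from 1 animal or several, so each p-value reflects only how much these particular samples varied. RNA was profiled on 1-colour Affymetrix 3′ arrays, and values are log2 signals per probe set, on which a step of 1 is a doubling. Differences are old minus young, and errors of means are SDs over 3 arrays.

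SREBPs are transcription factors made as precursors in the membrane of the endoplasmic reticulum. When sterols are scarce, the escort protein SCAP carries them to the Golgi, where proteases release the active part, which turns on genes for sterol and fatty acid synthesis and for sterol uptake. When sterols are plentiful, INSIG proteins hold SCAP and its SREBP in the endoplasmic reticulum. Insig1 is itself an SREBP target, so its RNA usually follows that of the synthesis enzymes in cultured cells and liver.

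Proximal promoters in RefSeq (GRCm38.p6, the C57BL/6J reference, not the CBA/CaJ sequence) are shown for the member that passed the test, Insig1, and for the enzyme genes Hmgcs1 and Idi1, whose brightest probe sets had differences of the opposite sign that did not pass the test. Each window runs from 250 bases before to 50 after the annotated start, 5′ to 3′, and all 3 lie on the plus strand, at chr5:28071162-28071461, chr13:119690101-119690400 and chr13:8885356-8885655. Capitals mark 4 motifs searched on both strands: the sterol regulatory element consensus TCACNCCAC, the E-box CACGTG, the CCAAT box CCAAT and the GC box GGGCGG. No 2 marked matches overlap in these windows.
Insig1: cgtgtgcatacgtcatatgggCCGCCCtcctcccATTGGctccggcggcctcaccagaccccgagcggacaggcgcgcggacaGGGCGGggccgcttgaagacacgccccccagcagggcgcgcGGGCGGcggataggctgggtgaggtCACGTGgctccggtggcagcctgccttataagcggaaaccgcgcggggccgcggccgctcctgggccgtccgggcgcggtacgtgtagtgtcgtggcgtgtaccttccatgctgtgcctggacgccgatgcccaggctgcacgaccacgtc
Hmgcs1: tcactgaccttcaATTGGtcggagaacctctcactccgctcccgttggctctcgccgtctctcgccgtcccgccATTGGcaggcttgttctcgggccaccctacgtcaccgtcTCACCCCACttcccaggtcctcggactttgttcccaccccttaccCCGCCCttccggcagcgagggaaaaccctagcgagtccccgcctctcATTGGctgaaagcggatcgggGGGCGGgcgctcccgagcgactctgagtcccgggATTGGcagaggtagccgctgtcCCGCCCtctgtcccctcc
Idi1: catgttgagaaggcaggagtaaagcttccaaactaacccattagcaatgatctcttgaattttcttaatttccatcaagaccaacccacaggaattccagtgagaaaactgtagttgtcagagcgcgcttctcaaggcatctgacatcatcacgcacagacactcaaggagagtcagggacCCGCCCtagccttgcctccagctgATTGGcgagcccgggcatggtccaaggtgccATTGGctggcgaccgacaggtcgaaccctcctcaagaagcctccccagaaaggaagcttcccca

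RefSeq windows were matched for 6 of the 8 genes, all but Sqle and Scd1, and came to 8 windows in all. The sterol element consensus was in 1 of the 8, that of Hmgcs1, starting 137 bases before the start. It was in 1.24% of 32851 windows of all genes. The E-box was in 1 of 8, that of Insig1, 101 bases before the start, against 7.15% of all windows. CCAAT boxes, which bind the SREBP partner NF-Y, were in 7 of 8 windows against 37.4% of all. GC boxes were in 6 of 8 against 35.7%. These are matches of letters, and binding was not measured.

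Among the 8 genes, Insig1 fell in old tissue and the other 7 did not pass the test. Old tissue had 72.4% of the young Insig1 signal, with a 95% confidence interval of 61.5% to 85.2%. The transcription factors Srebf1 and Srebf2 differed by 0.02 and 0.04, the sterol enzymes Hmgcs1, Idi1 and Sqle by 0.15, 0.34 and 0.00, and the fatty acid enzymes Scd1 and Fasn by 0.05 and -0.09. One probe set of the 15 was called by limma at an adjusted p of 0.05, downward. Of all probe sets tested, 4.71% were called, and 2.84% were called downward. At 1 probe set per gene, 1 of 8 fell and 0 rose, where 2.33% of all genes fell and 2.45% rose. One member among 8 is too few to read against these shares. The 8 genes had a median difference of 0.03, and the median of all genes was also 0.03. In tissue RNA, fewer cells of a type and less RNA per cell cannot be told apart.

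**Figure D1:**
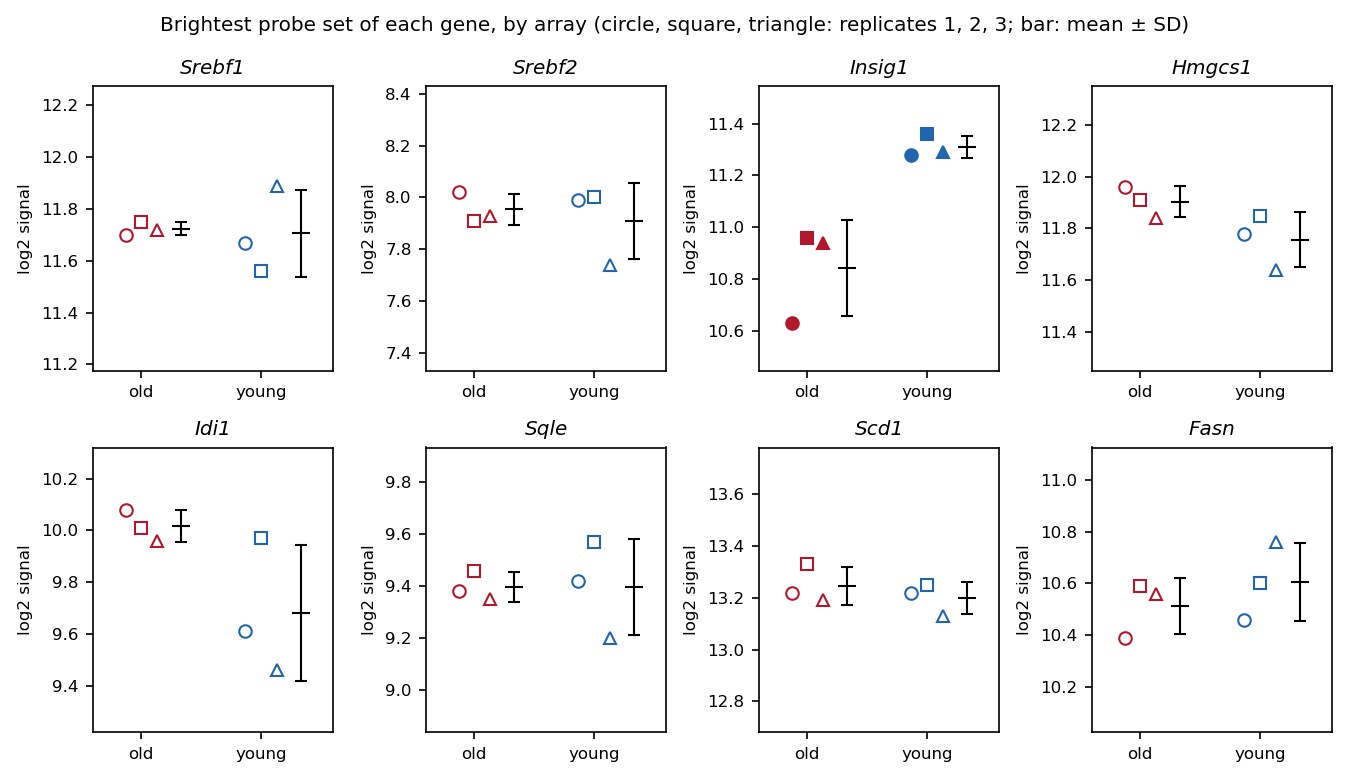
Log2 signal of the brightest probe set of each of the 8 genes, with old arrays left of young arrays in each panel and all panels spanning the same range. Circles, squares and triangles are replicates 1, 2 and 3, bars are the mean ± SD of 3 arrays, and filled symbols mark the gene that passed the test, Insig1, whose old values (10.63 to 10.96) all lie below its young values (11.28 to 11.36).

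Facts of the arrays bear on these values. Array medians over the tested probe sets lay between 6.26 and 6.30. Young replicate 2 stood apart: its Xist signal was 6.06, against 11.95 to 12.65 on the other 5 arrays, and its first principal component score of -11.56 was the nearest of the young to the old arrays (24.01 to 27.84). Xist RNA is made from the inactive X chromosome of female cells. The labels give no sex per sample, and the part of sex in results that depend on this array was not tested. For Gapdh, the 3′ control probe set exceeded the 5′ one by 1.26 to 1.45 on old arrays and by 1.07 to 1.25 on young arrays. The same measure for Actb was 1.39 to 1.84 on old arrays and 1.46 to 1.6 on young arrays, which overlapped. Defining markers of the tissue were bright on all arrays, with mean signals over 11 for all 14 markers of marginal, intermediate and basal strial cells and of spiral ligament fibrocytes. Of the 14, 0 passed the test. The log2 of the summed fibrocyte markers was 15.93 to 15.96 on old arrays and 16.01 on young arrays. For marginal cells it was 15.07 to 15.11 on old arrays and 14.99 to 15.04 on young arrays. The sums of intermediate and basal cells overlapped between the ages. The part of these shifts in the differences of the members was not tested.

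Srebf1 encodes the SREBP that mainly drives fatty acid synthesis. Its probe set had signals of 11.70, 11.75 and 11.72 on old arrays, against 11.67, 11.56 and 11.89 on young arrays. The old values lay within the young range. The difference was 0.02 ± 0.10 (SE, limma adjusted p = 0.957), with a 95% interval of -0.21 to 0.24. RefSeq gave 3 start windows for Srebf1, and the signal was not assigned to any of them.

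Srebf2 encodes the SREBP that mainly drives cholesterol synthesis. Its brighter probe set had 8.02, 7.91 and 7.93 on old arrays and 7.99, 8.0 and 7.74 on young arrays. Old and young values overlapped, and the difference was 0.04 ± 0.09 (SE, limma adjusted p = 0.876), within -0.17 to 0.26. The other probe set had 7.81, 7.57 and 7.78 on old arrays and 7.69, 7.76 and 7.57 on young arrays, a difference of 0.05 (limma adjusted p = 0.866). As a ratio of old over young signal, the interval ran from 0.887 to 1.20 for the brighter probe set and from 0.888 to 1.20 for the other.

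Insig1 encodes the retention protein of the endoplasmic reticulum, and was measured by 1 probe set. Signals were 10.63, 10.96 and 10.94 on old arrays and 11.28, 11.36 and 11.29 on young arrays. All old values lay below all young values, the nearest being 10.96 in old and 11.28 in young tissue, and the old arrays spread more widely than the young. Group means were 10.84 ± 0.185 in old and 11.31 ± 0.04 in young tissue (n = 3 each), a difference of -0.47 ± 0.10 (SE, limma adjusted p = 0.0417). Old replicate 1 was the lowest array. Without it the difference was -0.36, and the limma adjusted p was 0.0871. The call was lost on leaving out any 1 of the 6 arrays, with adjusted p of 0.0625 to 0.127, and the direction was the same each time (-0.53 to -0.36). Without young replicate 2 the difference was -0.44 (limma adjusted p = 0.0681). The Gapdh 3′ excess was 1.26 to 1.45 on old and 1.07 to 1.25 on young arrays, ranges that barely parted, while that of Actb overlapped. The part of this measure in the Insig1 difference was not tested.

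The relation of Insig1 to the other members was compared within each array, a set of 7 comparisons made after the values were seen. Insig1 minus Hmgcs1 was -1.06 ± 0.24 on old arrays and -0.45 ± 0.08 on young arrays. Insig1 minus Idi1 was 0.83 ± 0.24 on old arrays and 1.63 ± 0.22 on young arrays. Only the change of such a value between ages is of interest, since different probe sets bind differently. In all 7 comparisons, all old values of Insig1 relative to the other member lay below all young values, by 0.37 (against Fasn) to 0.80 (against Idi1) on average. The exact 2-sided permutation p was 0.1 for each, the smallest that 3 against 3 arrays can give, and 0.1 after Benjamini-Hochberg adjustment over the 7. This design therefore cannot pass 0.05, and the comparisons share the same Insig1 values. Those values alone already separated the ages, so the 7 separations are not added support for the Insig1 difference.

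**Figure D2:**
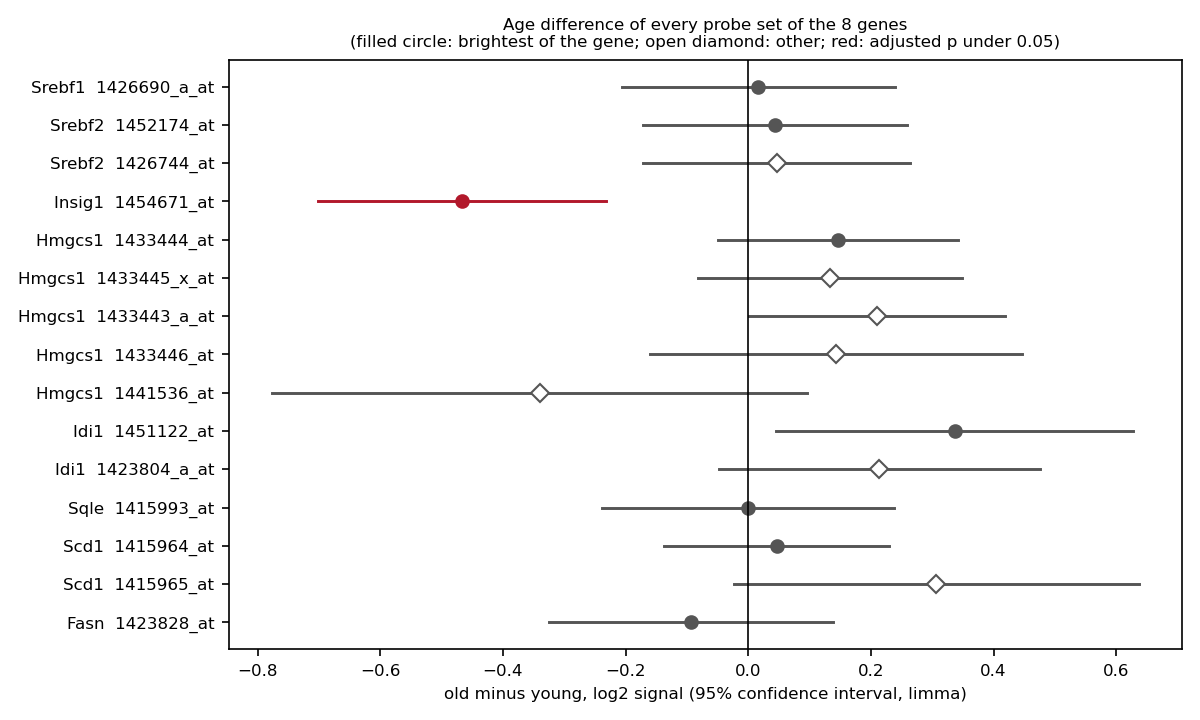
Difference between old and young log2 signal for each of the 15 probe sets, with the 95% confidence interval from limma. Circles are the brightest probe set of a gene and diamonds the others. The interval of Insig1 (-0.70 to -0.23) lies below 0. Those of the brighter Idi1 probe set (0.05 to 0.63) and of 1 Hmgcs1 probe set (0.00 to 0.42) lie above 0 without passing the adjusted test. The interval of the other Idi1 probe set (-0.05 to 0.475) crosses 0.

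Hmgcs1 encodes cytosolic HMG-CoA synthase, an early enzyme of the mevalonate pathway. Its brightest probe set had 11.96, 11.91 and 11.84 on old arrays and 11.78, 11.85 and 11.64 on young arrays. Only young replicate 2 reached the range of the old arrays. The difference was 0.15 ± 0.09 (SE, limma adjusted p = 0.419), within -0.05 to 0.34. Of its 4 other probe sets, 3 differed by 0.13, 0.14 and 0.21 (limma adjusted p = 0.524, 0.653 and 0.256). The one at 0.21 had 11.23, 11.30 and 11.26 on old arrays and 11.13, 11.14 and 10.89 on young arrays, so its groups did not overlap. That was so for 23.8% of all probe sets, and for 2 of the 15 examined here, this one and that of Insig1. The fifth Hmgcs1 probe set had a mean signal of 5.72 in old and 6.06 in young tissue, below the median of 6.28 over all probe sets, and differed by -0.34 (limma adjusted p = 0.396).

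Idi1 encodes isopentenyl diphosphate isomerase, which interconverts the isoprenoid building blocks. Its brighter probe set had 10.08, 10.01 and 9.96 on old arrays and 9.61, 9.97 and 9.46 on young arrays. Young replicate 2 lay among the old arrays, and the other 2 young arrays lay below all of them. The difference was 0.34 ± 0.13 (SE, limma adjusted p = 0.190), within 0.05 to 0.63. In the second Idi1 probe set young replicate 2 was above all old arrays and the other 2 young arrays were below them, with 9.15, 9.16 and 9.15 on old arrays and 8.77, 9.20 and 8.85 on young arrays, a difference of 0.21 (limma adjusted p = 0.371). Without young replicate 2, both probe sets were called higher in old tissue, by 0.48 (limma adjusted p = 0.0228) and 0.34 (limma adjusted p = 0.0462). Without that array 2 of the 15 probe sets were called, both of Idi1, and Insig1 was not. In that fit 3393 of all 45037 probe sets were called, 1851 of them upward, against 2119 and 838 with all arrays. Upward calls thus rose across the whole series, which also bears on the calls of other genes without this array given below.

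Sqle encodes squalene epoxidase, which catalyses the first oxygenation step of sterol synthesis. Signals were 9.38, 9.46 and 9.35 on old arrays and 9.42, 9.57 and 9.20 on young arrays. The old values lay within the young range, the highest and the lowest of the 6 being young replicates 2 and 3. Both means were 9.40, and the difference was 0.00 ± 0.10 (SE, limma adjusted p = 1), within -0.24 to 0.24.

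Scd1 encodes a stearoyl-CoA desaturase, which introduces the double bond of oleate. Its brighter probe set had 13.22, 13.33 and 13.19 on old arrays and 13.22, 13.25 and 13.13 on young arrays. The groups overlapped and differed by 0.05 ± 0.08 (SE, limma adjusted p = 0.836), within -0.14 to 0.23. The second Scd1 probe set had 8.94, 9.32 and 9.15 on old arrays and 8.63, 9.12 and 8.74 on young arrays, a difference of 0.31 (limma adjusted p = 0.299). Probe sets of the same gene were compared within arrays in 7 pairs, and the brighter Scd1 minus the dimmer was 4.11 ± 0.15 on old arrays and 4.37 ± 0.23 on young arrays (exact 2-sided permutation p = 0.2). Over the 7 pairs the smallest exact p was 0.2 (0.525 adjusted), and since 3 against 3 arrays cannot go below 0.1, this does not show that probe sets of a gene behaved alike. For the related desaturases, the difference was -0.04 for Scd2 (limma adjusted p = 0.837) and 0.28 for Scd3 (limma adjusted p = 0.239).

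Fasn encodes fatty acid synthase, which builds palmitate. Signals were 10.39, 10.59 and 10.56 on old arrays and 10.46, 10.60 and 10.76 on young arrays. The groups overlapped, and the difference was -0.09 ± 0.10 (SE, limma adjusted p = 0.715), within -0.33 to 0.14.

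The other enzymes of cholesterol synthesis were measured for 17 of the 20 listed, and the rest were not analysed here. By limma, 0 rose and 0 fell, and 4 of the 17 had an unadjusted p under 0.05, all higher in old tissue. Over all genes 3762 of 18193 had such a p, 2447 of them higher in old tissue. The like share for these 4 is thus 2447 of 18193, and 4 of 17 is too few to read against it. The median difference was 0.09, against 0.03 over all genes. Erg28, a membrane scaffold of sterol demethylation, had 9.64, 9.80 and 9.71 on old arrays and 9.36, 9.59 and 9.30 on young arrays (limma adjusted p = 0.134). Dhcr7, a reductase that acts at the end of the pathway, had 8.23, 8.38 and 8.07 on old arrays and 7.97, 7.95 and 7.98 on young arrays (limma adjusted p = 0.170). For both genes, named for their low p, every old value exceeded every young value. That was so for 4 of the 17, against 3096 of 18193 over all genes, again too few to read.

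Young replicate 2 differed from the other young arrays in this branch. Over the 20 sterol enzymes measured, Hmgcs1, Idi1 and Sqle included, the mean log2 signal was 9.19, 9.25 and 9.18 on old arrays and 9.05, 9.23 and 8.97 on young arrays. Old arrays and young replicate 2 were close to each other, and the other 2 young arrays were lower. Replicate 2 was the highest young array for 15 of the 20 enzymes, against 34.5% of all genes. Genes measured on 1 array share its RNA and its scaling, so these are not 20 independent values, and no test was made of the mean. Without that array, Idi1 and Erg28 (0.39, limma adjusted p = 0.0421) were the sterol enzymes called, both higher in old tissue.

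**Figure D3:**
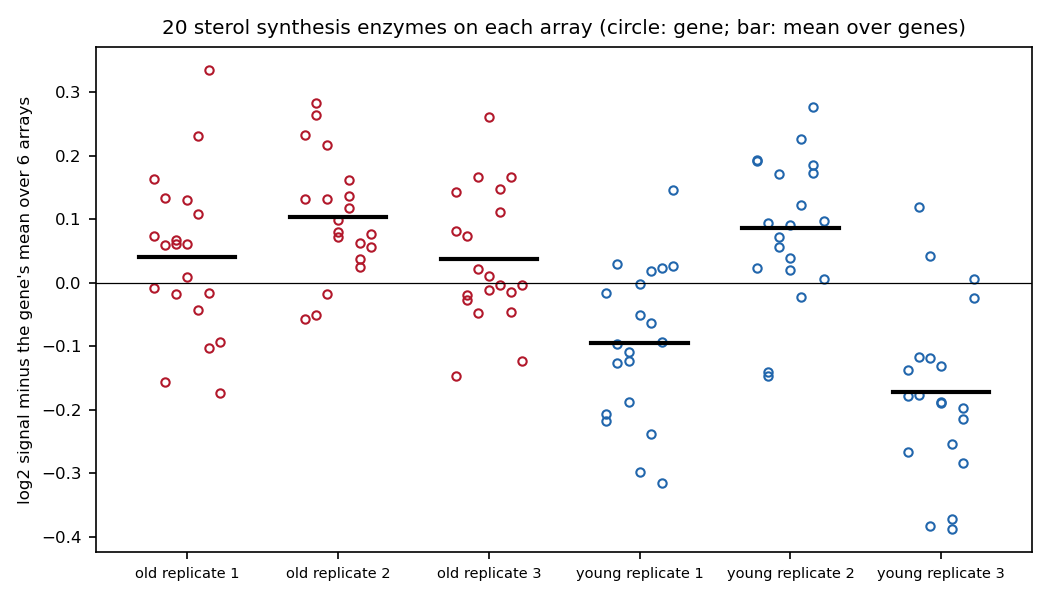
Log2 signal of 20 sterol synthesis enzymes on each of the 6 arrays, as a difference from each gene's mean over the arrays. Circles are genes and bars the mean over genes, and young replicate 2 sits with the 3 old arrays while young replicates 1 and 3 sit lower.

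The other genes of fatty acid synthesis, 17 of 17 measured, had 0 called by limma in either direction. An unadjusted p under 0.05 was found for 4, all higher in old tissue, against the same 2447 of 18193 over all genes. Again 4 of 17 is too few to read against that share. Their median difference was 0.07. Mid1ip1, which promotes polymerisation of acetyl-CoA carboxylase, had 9.71, 9.83 and 9.78 on old arrays and 9.25, 9.57 and 9.34 on young arrays (limma adjusted p = 0.0662). Acaca, a gene of that carboxylase, had 8.99, 9.05 and 8.99 on old arrays and 8.72, 8.78 and 8.84 on young arrays (limma adjusted p = 0.136). Neither gene's groups overlapped, and both were named for their low p. All old values lay above all young values for 6 of the 17 and below them for 1. Over all genes these numbers were 3096 and 1765 of 18193. Mid1ip1 was called without young replicate 2, at 0.48 (limma adjusted p = 0.0195). Acacb, another acetyl-CoA carboxylase gene, went the other way, by -0.16 (limma adjusted p = 0.393), with all old values below all young values.

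The machinery of SREBP retention and cutting and of sterol-regulated degradation was measured for 9 of 10 genes, and 0 were called by limma. An unadjusted p under 0.05 was found for 1 of the 9, against 3762 of 18193 over all genes. Scap, the escort protein, and Insig2, the second retention protein, differed by -0.08 and -0.03 (limma adjusted p = 0.687 and 0.910). The 95% interval of Insig2 ran from -0.25 to 0.19. Erlin1, a cholesterol-binding protein of the endoplasmic reticulum, had 9.36, 9.43 and 9.47 on old arrays and 8.75, 9.27 and 8.78 on young arrays (limma adjusted p = 0.0879). Mbtps2, the protease that makes the second cut, had 9.74, 9.90 and 9.78 on old arrays and 9.53, 9.77 and 9.42 on young arrays (limma adjusted p = 0.275). In both genes young replicate 2 was the highest young array, as it was for 4 of the 9 genes of this list, against 34.5% of all genes. Without that array Erlin1 was called at 0.66 (limma adjusted p = 0.00633).

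Of 9 measured genes of sterol uptake and transport, 1 rose and 0 fell by limma, and the median difference was 0.02. Over all genes 2.45% rose, and 1 gene of 9 is too few to read against that share. An unadjusted p under 0.05 was found for 4 of the 9, with 2 higher and 2 lower in old tissue, against 3762 of 18193 over all genes. The 2 lower were Lrp1 at -0.32 and Stard4 at -0.22 (limma adjusted p = 0.105 and 0.233), and neither gene's groups overlapped. All old values lay below all young values for 3 of the 9 genes and above them for 3. Over all genes these numbers were 1765 and 3096 of 18193. The one that rose was Mylip, a ubiquitin ligase and a target of liver X receptors. Signals of Mylip were 11.93, 11.84 and 11.94 on old arrays and 11.59, 11.53 and 11.38 on young arrays. The groups did not overlap, and the difference was 0.40 ± 0.09 (SE, limma adjusted p = 0.0363). With 1 array left out the call held only without young replicate 2 (adjusted p = 0.0435), and otherwise the adjusted p was 0.0526 to 0.155.

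Of 9 measured genes of liver X receptors, efflux and sterol storage, with Nr1h2 and Soat1 not analysed here, 1 rose and 0 fell, with a median difference of 0.10. Here too 1 gene of 9 is too few to read against the 2.45% of all genes that rose. An unadjusted p under 0.05 was found for 3 of the 9, with 2 higher and 1 lower in old tissue. The share over all genes was 3762 of 18193, and 3 of 9 is too few to read against it. Ch25h, a cholesterol hydroxylase whose oxysterol product binds INSIG proteins, had signals of 6.58, 6.86 and 6.93 on old arrays and 5.98, 6.43 and 6.02 on young arrays. Old values all exceeded young values, as they did for 3 of the 9 genes and for 3096 of 18193 over all genes. The Ch25h difference was 0.65 ± 0.14 (SE, limma adjusted p = 0.0398). The signal of Ch25h lay near the median of all probe sets. The call held without old replicate 1 (adjusted p = 0.0490) and without young replicate 2 (adjusted p = 0.0108), and was lost without any of the others (adjusted p of 0.111 to 0.157). The efflux pumps Abca1 and Abcg1, liver X receptor targets like Mylip, differed by 0.14 and 0.22 (limma adjusted p = 0.362 and 0.226).

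**Figure D4:**
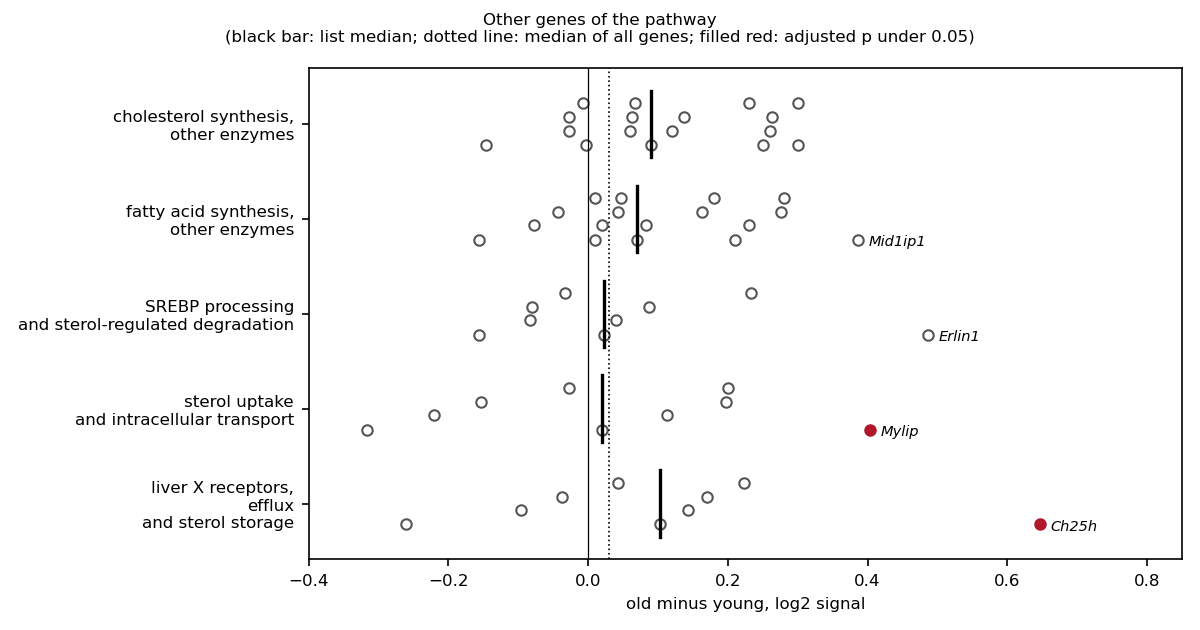
Old minus young log2 difference of the 61 other pathway genes measured, in 5 lists, each gene by its brightest probe set. Black bars are list medians (0.02 to 0.10), the dotted line is the median of all genes (0.03), and filled symbols are the 2 genes called, Mylip at 0.40 and Ch25h at 0.65.

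Markers of other cell types also differed between the ages. Of 5 macrophage markers 1 rose, Cd68 by 1.16 (limma adjusted p = 0.00230). In all, 4 of the 5 had positive differences and 1 a negative one. The negative one was Csf1r, the brightest of them, at -0.08 (limma adjusted p = 0.672). The log2 of their summed signal was 11.25 to 11.39 on old arrays and 11.10 to 11.14 on young arrays. Bone cell markers fell for 3 of 5, with summed signals of 11.26 to 11.64 on old and 12.41 to 12.69 on young arrays. Neutrophil and marrow markers fell for 5 of 6, with 9.26 to 10.40 on old and 10.95 to 11.63 on young arrays. By summed signal the bone and marrow lists were lower in old tissue, as Insig1 was. So were the fibrocyte list above and the adipocyte, Schwann cell and erythroid lists below. The macrophage list was higher, as Mylip and Ch25h were, and so was the marginal cell list above. The part of these lists in the differences of the 3 genes was not tested.

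Further cell types, among them adipocytes and Schwann cells, which are rich in lipid synthesis, were looked at in the same way. Of 4 measured adipocyte markers 1 fell, Adipoq by 0.86 (limma adjusted p = 0.0337), and all 4 had mean signals below the median of all probe sets. Their summed signal was 6.30 to 6.47 on old arrays and 6.51 to 7.25 on young arrays, highest in young replicate 2. Of 4 measured Schwann cell and myelin markers 1 fell, Pmp22 by 0.51 (limma adjusted p = 0.0265), which other cells also make. The sum, in which Pmp22 was the brightest marker, was 11.70 to 11.87 on old arrays and 12.05 to 12.25 on young arrays. The other markers Mbp, Mag and Pmp2 differed by 0.02, -0.04 and -0.09 and were not called. Erythroid markers fell for 1 of 3, with 7.20 to 7.27 on old and 7.51 to 8.20 on young arrays. Endothelial markers, 4 measured, and sensory epithelium markers, 4 measured, had 0 called and 0 with an unadjusted p under 0.05. The part of these lists in the differences above was not tested either.

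**Figure D5:**
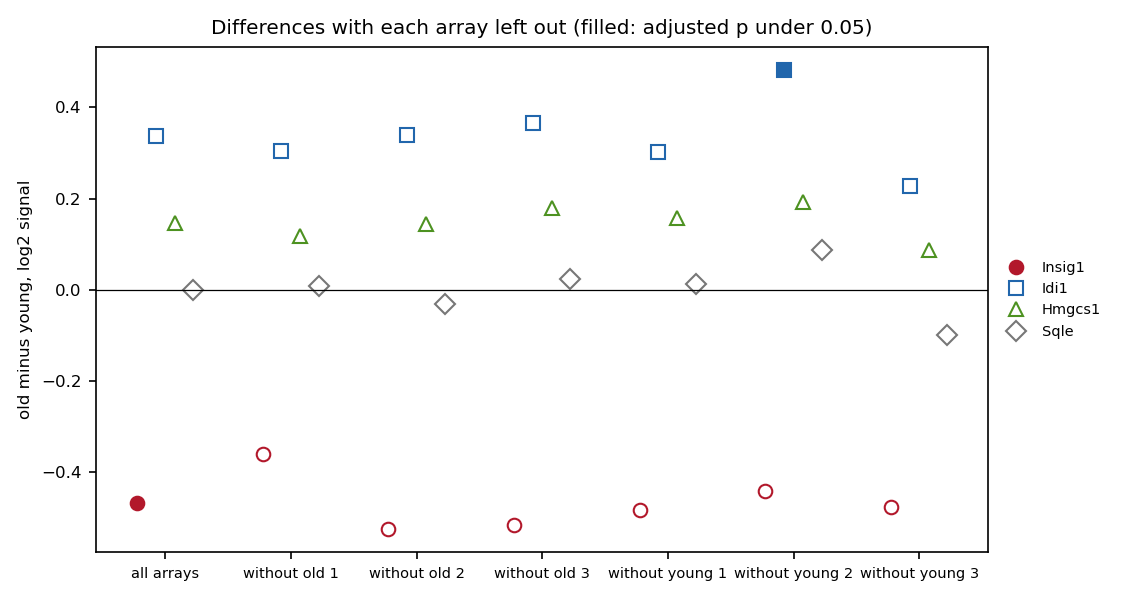
Old minus young log2 difference of Insig1 and the 3 sterol enzymes with all 6 arrays and with each array left out, filled where the limma adjusted p was under 0.05. Insig1 stays between -0.53 and -0.36 and is called with all arrays, and Idi1 is called without young replicate 2, at 0.48.

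Genes whose 6 signals ran most like those of each member were listed as a description, among 11587 other genes with a mean above the median signal. Insig1 was most like Tut4, Tjap1 and Psmc6 (Pearson r = 0.995, 0.992 and 0.990 over 6 arrays), which differed by -0.28, -0.23 and -0.33 and were not called. Idi1 was most like Trdmt1, Fbxo8 and Frg1 (r = 0.999, 0.997 and 0.997), and Hmgcs1 was most like Tirap, Fam162a and Sypl (r = 0.995, 0.994 and 0.994). For Srebf2 the list held Thrsp, a lipogenic gene (r = 0.987), beside Vdac2 and Ssr1 (r = 0.987 and 0.986). For Scd1 it held Nsdhl, an enzyme of cholesterol synthesis (r = 0.964), beside Ercc6l2 and Ddx3x (r = 0.982 and 0.966). Srebf1 ran with Ncoa1, Atp13a1 and Tle2 (r = 0.980, 0.976 and 0.976), Sqle with Ccnt1, Cct3 and Nop58 (r = 0.987, 0.987 and 0.979), and Fasn with Derl1, Inf2 and Slc25a36 (r = 0.994, 0.993 and 0.992). No member had another of the 8 among its closest 3. These are the highest of many correlations over few arrays that also differ by age.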

How the data were processed

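RNA of microdissected lateral wall was labelled with a 3′ IVT kit and hybridised to 1 array per sample, per the labels' protocols. The values deposited by the authors are log2 signals of 45101 probe sets, rounded to 2 decimals and lying between 2.66 and 14.76. RMA, MAS5 and Affymetrix Expression Console are named in the submitters' processing notes, with roles and versions not given in the sources used here. Array medians were nearly equal, so a shift shared by most genes would not be seen. Probe intensities were not used, so signal over background is unknown, and 3 arrays per age limit the precision.

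The 64 control probe sets were left out. Symbols came from GEO's platform annotation: 34945 probe sets had 1 symbol, 932 several and 9160 none listed, and 0 symbols needed updating. Where 1 value per gene was needed, the probe set of highest mean signal was taken. All 45037 probe sets were fitted with limma 3.58.1 in R 4.3.3, with age as the only term and Benjamini-Hochberg adjustment over all of them. The scripts were tested on simulated data. Figures used matplotlib 3.10.9.

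The members and gene lists were chosen with earlier results of these data known. All probe sets of the 8 members were named. From each pathway list, up to 6 called genes were named, or, with none called, the 2 of lowest p, and for each member the 3 most correlated genes. Scap, Insig2, Scd2, Scd3, Acacb, Lrp1, Stard4, Abca1, Abcg1, Adipoq, Pmp22, Mbp, Mag, Pmp2, Cd68 and Csf1r were added after their values were seen. Alternatives were 3 normalizations, array weights, a variance trend fitted robustly, removal of dim probe sets, a replicate block, a threshold of 0.01, averaging a gene's probe sets and leaving out each array.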

Additional observations from a re-analysis of the deposited data

How the results depend on the processing

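Under quantile normalization, median centring, cyclic loess, removal of dim probe sets, the robust variance trend, array weights, the replicate block and averaging a gene's probe sets, Insig1 was the 1 member called, lower in old tissue. Its difference was -0.49 to -0.40 with adjusted p of 0.0141 to 0.0454. At an adjusted p of 0.01, 436 probe sets were called in all (2119 at 0.05), 0 of the members, 0 of the uptake list and 0 of the receptor and efflux list. Array weights called 4480 probe sets, with 2 cholesterol enzymes, 1 fatty acid gene, 1 gene of SREBP processing and 2 of uptake. The dim filter called 1 fatty acid gene, and the robust trend 1 fatty acid gene and 2 uptake genes.

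With 1 array left out, between 515 probe sets (without old replicate 3) and 3393 (without young replicate 2) were called. The members called ranged from 0 to 1 gene and from 0 to 2 probe sets, and each of the 5 pathway lists from 0 to 1. Insig1 lost its call each time. Signs turned for values near 0 that passed in no fit. Srebf1 was -0.0044 under cyclic loess and -0.0436 with array weights, and -0.0567 to 0.108 with 1 array left out. The Srebf2 probe sets were at -0.0417 to 0.0883 and -0.005 to 0.122 with 1 array left out. The cause of these shifts and lost calls was not tested.

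Same-numbered arrays had correlations of their deviations from the age means of 0.14, 0.08 and 0.01 across probe sets, so the numbers were not taken to pair the samples. With the replicate block 1932 probe sets were called, Insig1 kept its call (adjusted p = 0.0454), and 0 uptake genes were called, so Mylip lost its call.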
